A study of Mus musculus with 6 samples.

Results

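The genes described here are 6 CXC chemokine genes, Cxcl1, Cxcl10, Cxcl12, Cxcl13, Cxcl14 and Cxcl16, and the chemokine receptor gene Cxcr4, in tongues of mouse embryos at embryonic day 14.5. They were taken as every probe set whose only gene symbol in the platform annotation is one of these names, which gave 14 of 34945 such probe sets and 7 of 18193 genes. The mutants were Tgfbr2 fl/fl; Wnt1-Cre embryos, in which both floxed copies of the gene for the type II TGF-beta receptor meet a recombinase that the Wnt1 promoter drives in neural crest cells. The controls were Tgfbr2 fl/fl embryos without Cre, titled wildtype although they carry the floxed copies, and both groups were of strain C57BL/6J with sex not determined in the labels. Each group had 3 Affymetrix arrays, and no label says whether the embryos came from separate litters, so p-values cover only the spread among these arrays, which may be technical. Wnt1-Cre leaves Tgfbr2 intact in muscle fibres, endothelium, blood cells and epithelium, which do not descend from the neural crest. The comparison asks how loss of TGF-beta signalling in neural crest cells alters gene expression in the developing tongue.

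Chemokines are small secreted proteins that bind G protein-coupled receptors and guide moving cells along gradients held on the matrix. Cxcl12 and its receptor Cxcr4 steer migrating muscle progenitors, endothelial cells and blood cells in the embryo, and Ackr3 is a second Cxcl12 receptor that mainly removes the ligand. Cxcl13 attracts Cxcr5-bearing cells to lymphoid tissue, where stromal cells make it. Cxcl1 acts through Cxcr2 on neutrophils, Cxcl10 through Cxcr3 on T cells after interferon, and Cxcl16 is made as a membrane protein that binds Cxcr6. Cxcl14 is a chemokine of epithelia and other tissues whose main receptor is not settled.

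Of these genes, Cxcl13 alone passed the test between mutants and controls, and it was higher in the mutants. Values are log2 expression made with RMA, which summarises the probes of a probe set, and the brightest probe set stood for a gene. Genes were tested with limma when their mean over the 6 arrays lay above the lowest 25% of genes, at 5.17 on the log2 scale, and a gene counted as called at a Benjamini-Hochberg adjusted p under 0.05 over the 13645 tested genes. Of the 7 members 5 were tested, and 1 was called, against 2.14% of all tested genes called in either direction and 1.32% called higher. Cxcl10 and Cxcl14 lay under the filter value and were not tested. The 3 mutant values lay on one side of the 3 control values for 4 of the 5 tested members, against 25.1% of all tested genes. In 3 of them, Cxcl13, Cxcl12 and Cxcl1, the mutants lay above (13.6% of all tested genes), and in Cxcr4 they lay below. The median difference of the 5 was 0.30 on the log2 scale (0.19 without mutant array 1), against 0.02 for all tested genes. Over all 14 probe sets, tested or not, 12 had a positive difference. Of all tested genes 53.4% had a positive difference, the share against which such counts are to be read in every list. The groups did not overlap in 7 of the 14, against 21.6% of all probe sets. Probe sets of the same gene are not independent.

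**Figure D1:**
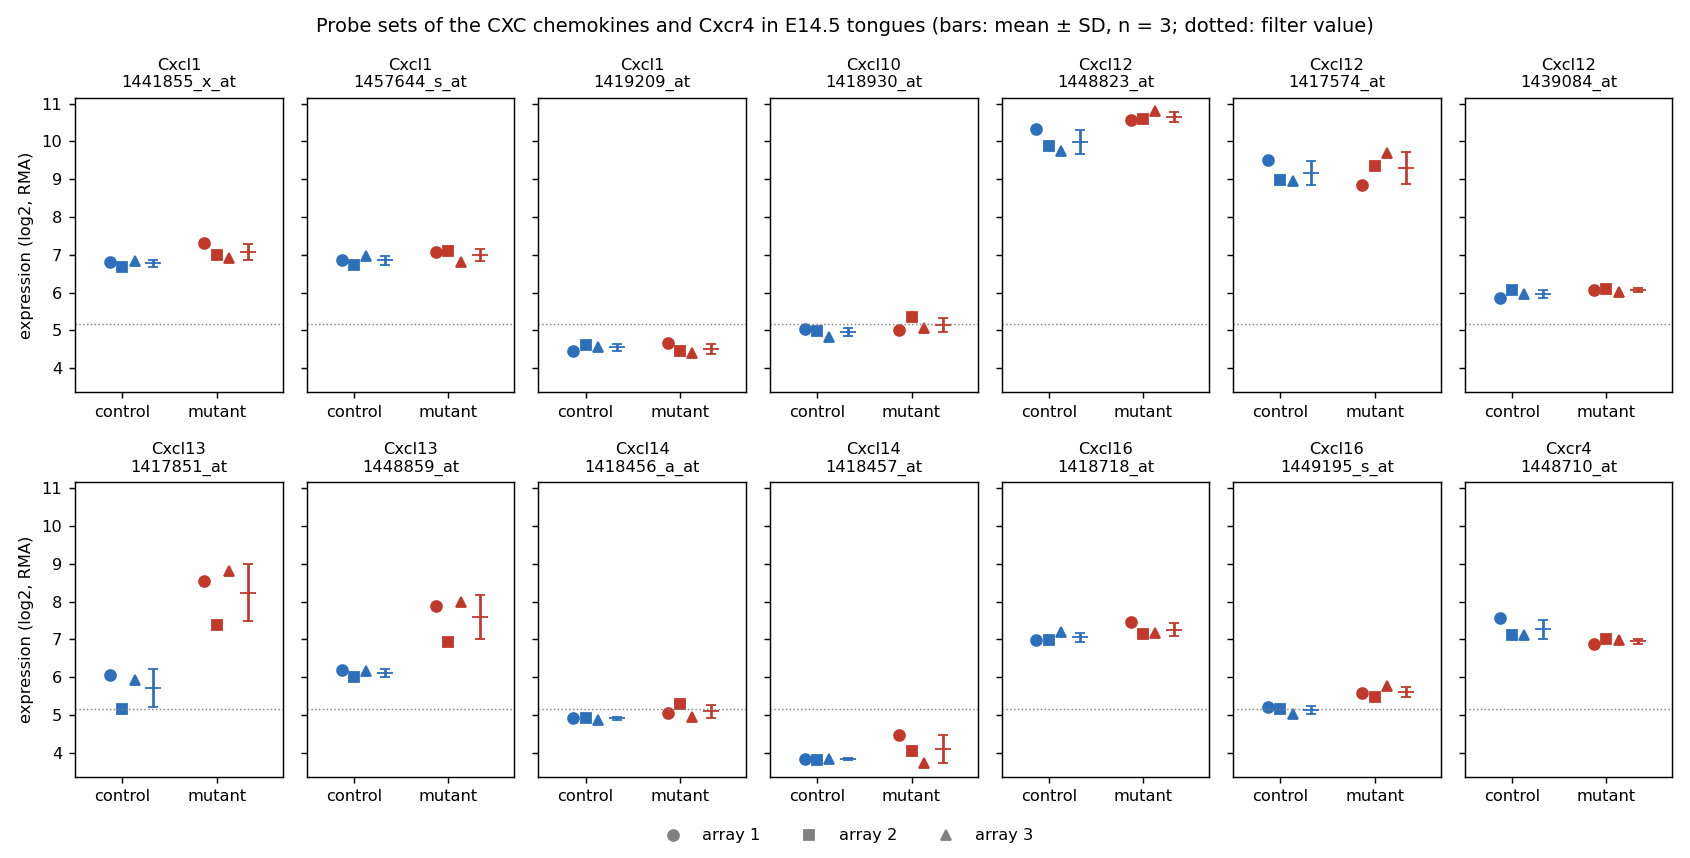
Expression on the log2 scale of each of the 14 probe sets in the 3 control (blue) and 3 mutant (red) arrays, with the marker shape giving the array number, bars the mean ± SD (n = 3) and the dotted line the filter value of 5.17. Both Cxcl13 probe sets have all mutants above all controls, whereas the Cxcl12 probe sets differ among themselves and Cxcl10 and Cxcl14 sit around or under the dotted line.

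Facts of the arrays bear on these values. Mutant array 1 stood apart from the rest, at -39.1 on the first principal component against -6.91 and -2.87 for the other mutants and 9.29 to 20.04 for the controls, and its correlations with the other arrays were 0.966 to 0.978. Tgfbr2 itself was 11.16, 11.79 and 11.69 in mutant arrays 1 to 3 and 11.55, 11.82 and 11.80 in the controls, a difference of -0.18 (standard error 0.18, adjusted p = 0.642 with limma) that was 0.01 without mutant array 1. The sources used here do not say which exons the Cre removes, so this value does not check the genotypes. Muscle, epithelium and mesenchyme markers were all above the filter value, and the T cell and neutrophil lists were partly under it. RNA of whole tongue cannot tell fewer cells of a type from less RNA per cell.

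Cxcl13 lies at chr5:95956939-95961068 of the mouse assembly GRCm38.p6. On its brightest probe set, 1417851_at, it was 8.54, 7.38 and 8.80 in mutant arrays 1 to 3 and 6.07, 5.15 and 5.92 in control arrays 1 to 3. The lowest mutant was above the highest control, and array 2 was the lowest of its group on both sides. The means were 8.24 ± 0.75 and 5.71 ± 0.49 (SD, n = 3 each), so Cxcl13 rose by 2.53 on the log2 scale (95% interval 1.61 to 3.44, adjusted p = 0.0264 with limma), a 5.76-fold difference. Only 7 of the 13645 tested genes had a higher difference. The control values lay near the filter value, so the fold is less certain than for a brighter gene.

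The second Cxcl13 probe set, 1448859_at, gave 7.88, 6.93 and 7.98 in the mutants and 6.19, 6.00 and 6.17 in the controls. Its mutants too lay above all controls, but the difference of 1.48 was smaller than that of the brighter probe set. When all 34945 probe sets were tested on their own, of which 1.12% were called, both Cxcl13 probe sets were called with adjusted p of 0.0327 and 0.0469, and none of the other 12. Between arrays of the same number in the titles, the brighter probe set differed by 2.47, 2.23 and 2.87 and the dimmer by 1.69, 0.93 and 1.81. The spread between these 3 differences was narrower than the spread within either group for the brighter probe set. With the replicate number as a block, where 3.59% of tested genes were called, the standard error of the Cxcl13 difference fell from 0.391 to 0.142 (adjusted p = 0.00138). No label says that the title numbers mark pairs. After subtraction of group means, mutant array 2 correlated at 0.196 with control array 3 and at 0.105 with control array 2. The smaller p-value and the narrower spread therefore rest on an assumed pairing.

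The Cxcl13 call did not depend on mutant array 1, but it depended on other single arrays. Without mutant array 1 the difference was 2.38 (adjusted p = 0.0299 with limma, 4.91% of tested genes called). Leaving out mutant array 3 gave an adjusted p of 0.0525 and a difference of 2.25. Leaving out a control gave 0.0666, 0.118 and 0.116 for arrays 1, 2 and 3, with differences of 2.70, 2.24 and 2.63. The Cxcl13 difference was 2.95 without mutant array 2 (adjusted p = 0.0217). Calls fell in the whole series too. Of all tested genes 142, 16 and 19 were called without control arrays 1, 2 and 3, against 292 with all 6 arrays. Without mutant array 3 the count was 242, and without mutant array 2 it was 88. Xist, which marks female cells, was high in mutant arrays 1 and 3 and control array 1. With the sex this gives as a covariate, the Cxcl13 difference was 2.22 (adjusted p = 0.0205).

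By the root mean square difference of values centred on each gene's mean over the 6 arrays, the tested genes nearest to Cxcl13 were Fam162b (0.309), Pmaip1 (0.504) and Shisa3 (0.529). Fam162b was 8.99, 8.21 and 8.78 in the mutants and 6.24, 5.56 and 5.85 in the controls, with array 2 lowest in both groups as for Cxcl13. Pmaip1 encodes the pro-apoptotic protein Noxa, and Shisa3 an inhibitor of Wnt and FGF receptors. Neither had array 2 as the lowest mutant: Pmaip1 was lowest in mutant array 1, at 8.62, and so was Shisa3, at 7.36. The differences were 2.77 for Fam162b, 2.64 for Pmaip1 and 2.57 for Shisa3 (adjusted p = 0.00447, 0.00298 and 0.00320 with limma). These genes were picked for likeness to Cxcl13 over the same 6 arrays. Differences near that of Cxcl13 and small p-values follow from that choice and are not a separate result.

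The promoters of Cxcl13, Cxcl1 and Cxcl10 are shown because Cxcl13 is the member called, and Cxcl1 and Cxcl10, which lie on the same chromosome, are textbook targets of NF-kappaB and of interferon with NF-kappaB. Each sequence is the 250 bases before the gene's start in RefSeq, build GRCm38.p6, read 5′ to 3′ on the gene's strand. RefSeq promoters were matched for 6 of the 7 members. Capitals mark matches on either strand to the NF-kappaB core GGGANTTNC, the interferon response core GAAANNGAA, the Smad box CAGACA or the TATA box TATAAA, where N is any base. The windows are chr5:95956689-95956938 on the plus strand for Cxcl13, chr5:90890995-90891244 on the plus strand for Cxcl1 and chr5:92348890-92349139 on the minus strand for Cxcl10.
Cxcl13: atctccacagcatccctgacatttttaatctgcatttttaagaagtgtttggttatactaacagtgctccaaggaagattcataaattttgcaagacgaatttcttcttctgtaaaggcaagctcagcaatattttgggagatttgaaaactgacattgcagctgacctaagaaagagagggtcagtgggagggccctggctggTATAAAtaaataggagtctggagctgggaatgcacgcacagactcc
Cxcl1: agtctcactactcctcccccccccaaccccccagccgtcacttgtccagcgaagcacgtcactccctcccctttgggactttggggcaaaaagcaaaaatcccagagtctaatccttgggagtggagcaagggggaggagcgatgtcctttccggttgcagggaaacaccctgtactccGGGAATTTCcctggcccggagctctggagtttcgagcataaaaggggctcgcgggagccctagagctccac
Cxcl10: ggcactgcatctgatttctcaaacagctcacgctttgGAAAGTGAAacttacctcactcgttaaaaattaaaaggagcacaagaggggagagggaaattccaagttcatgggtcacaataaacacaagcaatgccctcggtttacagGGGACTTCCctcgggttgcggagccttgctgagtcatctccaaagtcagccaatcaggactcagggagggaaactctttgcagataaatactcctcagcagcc

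The Cxcl13 window held a TATA box at -46 to -41 from the start and no match to the other 3 motifs. The Cxcl1 window held the NF-kappaB core at -71 to -63, and the Cxcl10 window held it at -103 to -95 with an interferon response core at -213 to -205. Over all 32851 promoter windows of this length, 3.54% held the NF-kappaB core, 7.13% the interferon response core, 17.1% the Smad box and 12.4% the TATA box. Of the other members, Cxcl12 matched none of the 4 motifs, Cxcl14 held an interferon response core and Cxcr4 overlapping TATA boxes on the 2 strands. The Cxcl14 window, chr13:56296552-56296801 on the minus strand, lies inside the gene's span of chr13:56288643-56296811, so it does not precede the whole gene. The GC content was 42.0% for Cxcl13, 48.0% for Cxcl10 and between 59.2% and 64.4% for the other 4. A match describes letters and not binding, and a missing match says only that these letters are not in the window.

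Cxcl12, at chr6:117168535-117181368, did not pass the test, and its probe sets did not give the same picture. The brightest, 1448823_at, was 10.57, 10.59 and 10.80 in mutant arrays 1 to 3 and 10.33, 9.87 and 9.74 in the controls. All mutants lay above all controls here, with control array 1 close to the mutants. The means were 10.65 ± 0.13 and 9.98 ± 0.31 (SD, n = 3 each), a difference of 0.67 (95% interval 0.29 to 1.052, adjusted p = 0.0983 with limma). The next probe set, 1417574_at, was 8.83, 9.35 and 9.68 in the mutants and 9.52, 8.99 and 8.96 in the controls. Its groups overlapped, with mutant array 1 the lowest of all 6 arrays, and it differed by 0.13, or by 0.36 without mutant array 1. The third, 1439084_at, was between 5.87 and 6.11 in all arrays and differed by 0.09.

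The mean of the 3 Cxcl12 probe sets differed by 0.30 (adjusted p = 0.260 with limma). Cxcl12 was called under array quality weights (0.81, adjusted p = 0.0155, with 7.58% of tested genes called) and without control array 1 (0.85, adjusted p = 0.0450, with 1.04% called). Its differences between same-numbered arrays on the brightest probe set were 0.24, 0.72 and 1.06. These 3 values spread more widely than those of Cxcl13 in proportion to their size.

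Cxcr4, the signalling receptor of Cxcl12, at chr1:128588199-128592299, has a single probe set. It was 6.87, 6.999 and 6.98 in mutant arrays 1 to 3 and 7.56, 7.12 and 7.12 in the controls. The mutants lay below all controls, and control array 1 was the one high value. The difference was -0.32 (95% interval -0.64 to 0.0055, unadjusted p = 0.0531, adjusted p = 0.304 with limma), and it was -0.17 without control array 1. Muscle progenitor markers, which include genes of Cxcr4-bearing cells, did not separate the groups: their mean level was 9.16 to 9.88 in the mutants and 9.73 to 9.78 in the controls. None of the 7 was called with limma, and 1 had an unadjusted p under 0.05, as had 16.9% of all tested genes, the share against which such counts are to be read in every list. The list median was -0.10, and 0.10 without mutant array 1. Myf5, a factor of muscle commitment, differed by 0.27 and Myod1, another, by -0.42 (adjusted p = 0.288 and 0.390); without mutant array 1 the Myod1 difference was -0.17.

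Ackr3, the scavenging receptor of Cxcl12, was 11.44, 10.98 and 10.72 in the mutants and 10.69, 10.30 and 10.28 in the controls. The groups did not overlap, though mutant array 3 and control array 1 nearly met. The difference of 0.62 (standard error 0.20) did not pass with limma (adjusted p = 0.179), and it passed with the replicate block (adjusted p = 0.0358). Its probe set name ends in a suffix for probes shared with similar transcripts. Dpp4, encoding a protease that inactivates Cxcl12, differed by 0.09 (adjusted p = 0.621), or by 0.20 in the mean of its probe sets.

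Cxcl16, at chr11:70454389-70459984, was 7.47, 7.15 and 7.16 in the mutants and 6.97, 6.99 and 7.20 in the controls on its brightest probe set, 1418718_at. The groups overlapped, and the difference was 0.21 (95% interval -0.08 to 0.49, adjusted p = 0.436 with limma). It was 0.10 without mutant array 1, and 0.34 in the mean of both probe sets (adjusted p = 0.0889). The dimmer 1449195_s_at was 5.59, 5.48 and 5.76 in the mutants and 5.21, 5.17 and 5.03 in the controls. On that probe set the mutants lay above all controls with a difference of 0.48 (adjusted p = 0.0991 among all probe sets). Control array 3 had the highest Cxcl16 value of the controls on the former and the lowest on the latter. Adam10 and Adam17, whose proteins shed Cxcl16 from the membrane, differed by 0.12 and -0.11 (adjusted p = 0.532 and 0.654). In the mean of their probe sets these were 0.04 and -0.28, and Adam17 was at -0.01 without mutant array 1. The Cxcl16 receptor gene Cxcr6 lay under the filter value, with means of 3.81 and 3.78 in mutants and controls.

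Cxcl1, at chr5:90891245-90893121, was 7.30, 7.003 and 6.92 in the mutants and 6.82, 6.67 and 6.84 in the controls on 1441855_x_at. The groups did not overlap, with a gap smaller than the range of either group. The difference was 0.30 (95% interval 0.01 to 0.58, adjusted p = 0.277 with limma), and 0.19 without mutant array 1. The suffix of this probe set marks probes that match several transcripts. The other such probe set, 1457644_s_at, differed by 0.14, and 1419209_at, the only Cxcl1 probe set without such a suffix, lay between 4.41 and 4.66 in all arrays and differed by -0.05. The Cxcl1 receptor gene Cxcr2 had means of 3.80 and 3.65, under the filter value.

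Cxcl10, at chr5:92346638-92348889, was 5.01, 5.34 and 5.07 in the mutants and 5.03, 4.997 and 4.83 in the controls. These values lay near or under the filter value and overlapped, with a difference of 0.19 that was not tested. Its receptor gene Cxcr3 had means of 4.86 and 4.75, also under the filter value. Cxcl14, at chr13:56288643-56296811, was 5.05, 5.29 and 4.94 in the mutants and 4.92, 4.93 and 4.88 in the controls on its brighter probe set. All mutants lay above all controls there, with a difference of 0.19 that was not tested. The dimmer Cxcl14 probe set lay between 3.74 and 4.48 and overlapped, with a difference of 0.26. Neither gene gave a signal clearly above the dim probe sets, so these arrays do not measure a change in them.

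**Figure D2:**
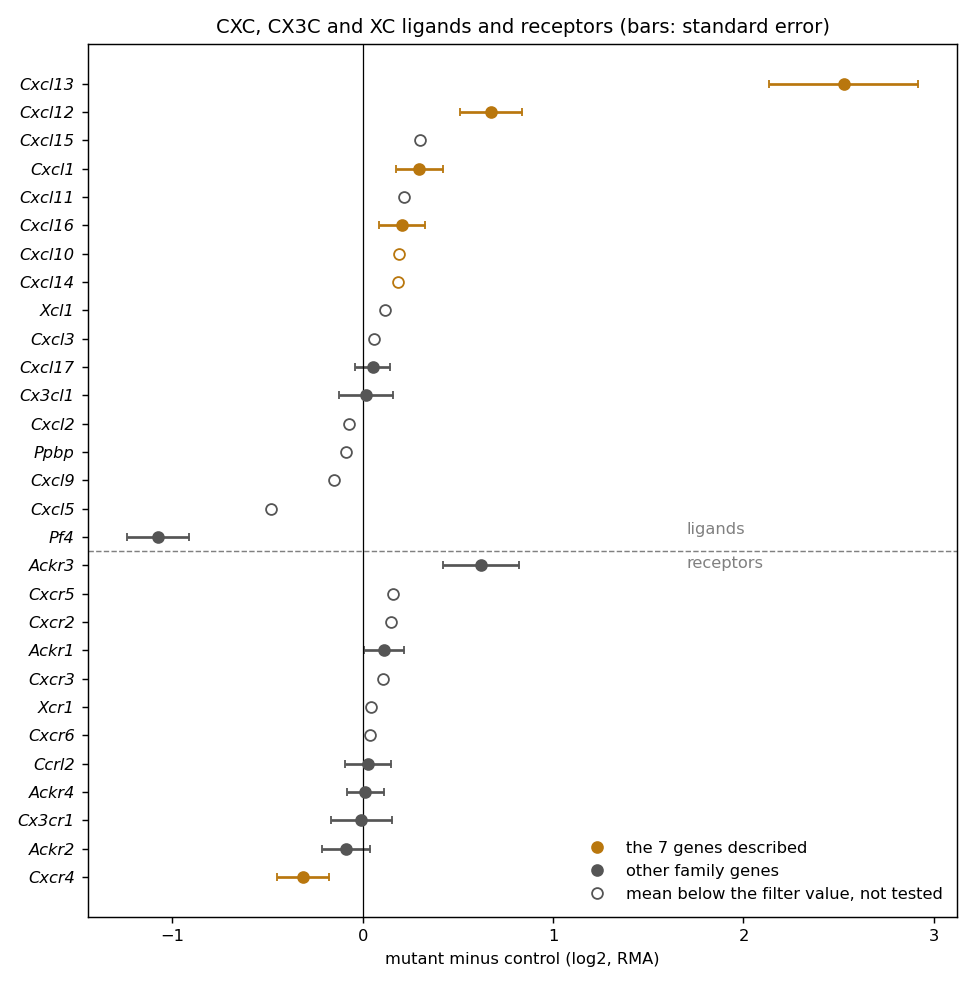
Log2 difference, mutant minus control, of each measured CXC, CX3C and XC ligand gene (upper block) and receptor gene (lower block), with the standard error for tested genes. Cxcl13 at 2.53 stands furthest to the right, Pf4 at -1.07 furthest to the left, and open circles mark genes with a mean under the filter value.

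In the rest of the family, the ligand gene Pf4 fell and no receptor gene was called. Of 11 further CXC, CX3C and XC ligand genes 8 lay under the filter value and 3 were tested, of which 1 was called, lower in the mutants (median difference of the 3, 0.02). Pf4, encoding platelet factor 4 of megakaryocytes and also made by mouse macrophages, was 7.25, 7.43 and 6.92 in mutant arrays 1 to 3 and 8.42, 8.37 and 8.03 in the controls. All mutants lay below all controls. The difference was -1.07 (standard error 0.16, adjusted p = 0.0250 with limma). The call was lost without mutant array 2 and without each control array, with adjusted p between 0.0200 and 0.139 over the 6 fits that left out an array, and with sex as a covariate. Of the 17 measured CXC, CX3C and XC ligand genes, members included, 11 lie on chromosome 5. Of these, 8 lay under the filter value, and Cxcl13 and Pf4 were called in opposite directions.

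Among the 12 measured receptor genes of this type, Cxcr4 included, 5 lay under the filter value, Cxcr5 among them. Cxcr5, the receptor gene for Cxcl13, had means of 4.05 and 3.90 in mutants and controls. None of the 6 tested besides Cxcr4 was called with limma, 1 (Ackr3) had an unadjusted p under 0.05, and Ackr1, another scavenging receptor gene, was next at 0.11 (adjusted p = 0.636). Of 15 tested CC ligand genes 0 were called and 4 had an unadjusted p under 0.05, with a median difference of 0.05 (0.0012 without mutant array 1). Ccl27a, an epithelial ligand read by a probe set with a shared-probe suffix, had the smallest p, with a difference of 0.54 (adjusted p = 0.0778), followed by Ccl6 at 0.52 (0.134). Of 3 tested CC receptor genes 0 were called and 0 had an unadjusted p under 0.05; Ccr1 differed by -0.37 and Ccr10 by 0.13, and Ccr1 was called without mutant array 1 (-0.59, adjusted p = 0.0244).

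Genes that process or relay chemokine signals gave 1 call. Of 6 proteases that cut or shed chemokines 0 were called and 0 had an unadjusted p under 0.05 (median -0.07, and 0.03 without mutant array 1), with Mmp9 at -0.26 and Mmp2 at -0.42 having the smallest p (adjusted p = 0.342 and 0.450). Mmp2 was at -0.11 without mutant array 1, and Mmp9 at -0.10 in the mean of its probe sets. Of 16 genes behind the receptors 1 was called and 3 had an unadjusted p under 0.05, with a median of -0.03 (0.02 without mutant array 1). Rgs2, encoding a protein that shortens G protein signals, was 11.30, 11.43 and 11.20 in the mutants and 10.77, 10.57 and 10.61 in the controls and rose by 0.66 (standard error 0.10, adjusted p = 0.0266 with limma). Its adjusted p was between 0.0186 and 0.153 over the fits that left out an array, and the call was lost without mutant array 2 and without each control array.

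The genes known to respond with Cxcl1 and Cxcl10 were not called. Of 13 tested interferon response genes 11 had a positive difference, 0 were called with limma and 3 had an unadjusted p under 0.05, with a median of 0.17 (0.10 without mutant array 1). The mean level of the 20 measured interferon response genes was 6.09 to 6.19 in the mutants and 5.96 to 6.01 in the controls, and did not overlap. Of these 20 genes 7 lay under the filter value. The 2 with the smallest p differed in sign: Rsad2, an antiviral enzyme gene, gave -0.61 (adjusted p = 0.0654, 0.0191 without mutant array 1), and Ifit3, another antiviral gene, gave 0.80 (adjusted p = 0.0985, 0.0192 with the replicate block). Of 16 NF-kappaB genes 9 were positive, 0 were called and 3 had an unadjusted p under 0.05, with a median of 0.01. The mean level of the 20 measured NF-kappaB genes, 4 of them under the filter value, did not overlap either. It was 6.946 to 6.973 in the mutants and 6.844 to 6.912 in the controls. The median over all probe sets of an array also lay higher in the mutants, at 5.964 to 5.983 against 5.924 to 5.952. Small shifts in the mean level of a list are to be read against that offset. Nfkbia, which encodes the NF-kappaB inhibitor, differed by 0.35 and Bcl3, a relative of it, by 0.38 (adjusted p = 0.0932 and 0.138).

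**Figure D3:**
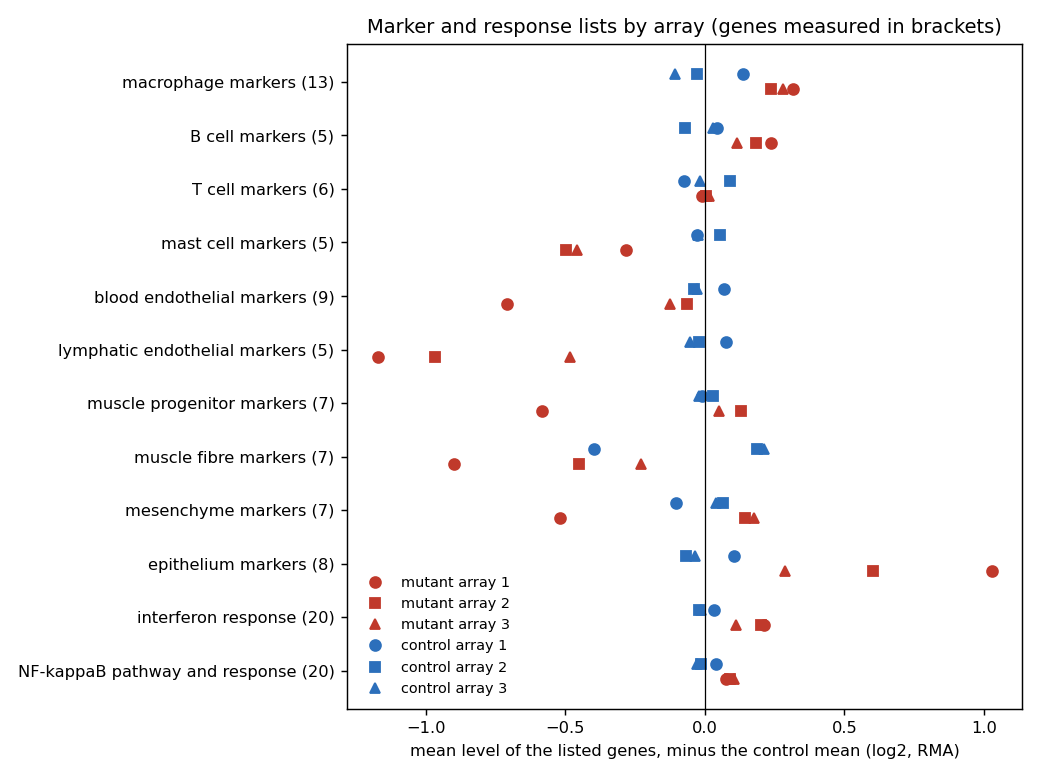
Mean log2 level of the measured genes of each list in each array, minus the control mean, for 3 mutant (red) and 3 control (blue) arrays. The mutants lie above the controls for macrophage and epithelium markers, among other lists. They lie below them for lymphatic and blood endothelial markers, among others. Mutant array 1 lies lowest for the blood endothelial, muscle progenitor and mesenchyme lists.

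Markers of cells that make or answer to chemokines moved with genotype in part. Of 12 tested macrophage markers 3 were called higher and 1 was called lower, against 2.14% of all tested genes called. A positive difference was seen in 10 of the 12, and 7 had an unadjusted p under 0.05 with limma. The list median was 0.39 (0.43 without mutant array 1). The mean level of the 13 measured markers was 7.35 to 7.43 in the mutants and 7.01 to 7.25 in the controls. C1qa, encoding a chain of complement C1q, rose by 1.046, C1qc by 0.71 and C1qb by 0.87 (adjusted p = 0.0152, 0.0349 and 0.0482), whereas Mrc1, a scavenging receptor gene of resident macrophages, fell by 1.53 (adjusted p = 0.00775). The direction of Mrc1 was that of Pf4, and that of the C1q genes was that of Cxcl13. The part of these cells in the chemokine values was not tested. Beyond single arrays and sex, the C1qb call failed under a filter at 50%, in the fit of every probe set, and under median centring or quantile normalization. With the replicate block 4 macrophage markers were higher and 1 was lower.

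The B cell list had 3 of its 5 measured genes under the filter value, Cd79b, Ms4a1 and Pax5, and Cd79a differed by -0.12 with means of 5.12 and 5.24, a gene named here after its values were seen. Blnk, an adaptor gene of B cells and macrophages, rose by 0.62 (adjusted p = 0.0293), and the list's mean level was 4.86 to 4.98 in the mutants and 4.68 to 4.79 in the controls. Of 8 tested lymphoid stroma organiser genes, the setting in which Cxcl13 is best known, 0 were called with limma and 2 had an unadjusted p under 0.05, with a median of 0.07 (0.02 without mutant array 1). Tnfrsf11a, the receptor gene for RANKL, gave -0.37 and Id2, a transcription factor gene, 0.32 (adjusted p = 0.143 and 0.274), and Tnfrsf11a was at -0.11 in the mean of its probe sets. Of 4 tested T cell markers and 2 tested neutrophil markers 0 were called and 0 had an unadjusted p under 0.05. Cd4 and Cd3e of the former gave -0.09 and 0.10, and Camp and S100a9 of the latter 0.09 and 0.11 (0.04 and 0.35 without mutant array 1). The mast cell protease gene Cpa3 fell by 1.34 (adjusted p = 0.0260), the 1 call among 2 tested mast cell markers. The mean level of the 5 measured mast cell markers, 3 of them under the filter value, was 4.47 to 4.69 in the mutants. In the controls it was 4.94 to 5.02.

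Vessel markers were lower in part. Of 5 lymphatic endothelial markers 2 fell, with differences of -2.21 for Lyve1 and -1.37 for Mmrn1 (adjusted p = 0.0150 and 0.0133). In the mean of their probe sets Lyve1 was at -1.50 and Mmrn1 at -0.62 (adjusted p = 0.00491 and 0.0230). The mutant values of Lyve1, 5.15, 3.90 and 4.67, all lay under the filter value, so the size of its fall is less certain. The list median was -0.40 (-0.16 without mutant array 1), and the list's mean level was 5.93 to 6.62 in the mutants and 7.05 to 7.18 in the controls. Lyve1 is also a gene of tissue macrophages. Of 9 blood endothelial markers, which include cells that carry Cxcr4 and Ackr3, 0 were called with limma and 1, the junction gene Cldn5, had an unadjusted p under 0.05 (-0.68, adjusted p = 0.0555, 0.0360 without mutant array 1), followed by Esam at -0.38 (-0.19 without mutant array 1). The median of this list was -0.38, and -0.04 without mutant array 1. The mean level of the list was 7.08 to 7.73 in the mutants and 7.75 to 7.86 in the controls, lowest in mutant array 1. Among 7 pericyte and smooth muscle markers, cells that can make Cxcl12, 0 were called and 1 had an unadjusted p under 0.05, Kcnj8 at 0.30 (adjusted p = 0.187), with Rgs5 next at -0.25 (-0.12 without mutant array 1).

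The lists for the main tissues of the tongue held 1 call in all. Of 8 epithelium markers 8 had a positive difference (median 0.59), 0 were called with limma and 6 had an unadjusted p under 0.05. Their mean level was 10.93 to 11.67 in the mutants and 10.57 to 10.75 in the controls. Krt15 and Krt14, keratin genes of the basal layer, gave 0.56 and 0.94 (adjusted p = 0.0595 and 0.0605, or 0.0484 and 0.0360 without mutant array 1), and Krt14 was also called with the replicate block (adjusted p = 0.0315), where 2 epithelium markers were. Of 7 muscle fibre markers 7 had a negative difference, and the list median was -0.67 (without mutant array 1, -0.29), 0 were called and 3 had an unadjusted p under 0.05; Tnnt3 and Acta1, genes of the sarcomere, gave -0.77 and -0.67 (adjusted p = 0.138 and 0.202, or 0.0271 and 0.0262 with the replicate block, where 3 muscle fibre markers were called lower). Acta1 was at -0.44 without mutant array 1. Of 7 mesenchyme markers, the main Cxcl12 source in many embryonic tissues, 1 was called: Dcn, a matrix proteoglycan gene, rose by 0.65 (adjusted p = 0.0238) while the list's median was -0.19, or 0.13 without mutant array 1. In the mean of its probe sets Dcn differed by 0.41 and was not called (adjusted p = 0.0563), which left no mesenchyme call. The part of these tissues in the Cxcl12, Cxcl13 and Cxcr4 values was not tested.

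The other lists held 1 call. Among 5 neuron markers Stmn2 rose by 1.07 (adjusted p = 0.0272), a call lost when its probe sets were averaged (0.92, adjusted p = 0.0695). The median of the 5 was 0.22, and 0.59 with 3 called without mutant array 1. None of 4 Schwann cell, 3 red cell and 4 cartilage and bone markers was called with limma, with 2, 1 and 1 of them at an unadjusted p under 0.05. These last were S100b (0.37) and Sox10 (0.34), Slc4a1 (-0.49), and Sp7 (0.30), with Alas2 at -0.21 and Col2a1 at -0.52 the next of their lists. Without mutant array 1 Sox10 (0.47, adjusted p = 0.0187) and Slc4a1 (-0.60, adjusted p = 0.0109) were called, and Col2a1 was at -0.21. Sox10 was at 0.15 in the mean of its probe sets. All 12 called genes named from the lists, Pf4 and Rgs2 included, failed the test when control array 2 was left out and likewise for control array 3 (adjusted p between 0.0524 and 0.226). Those fits called only 16 and 19 of all tested genes, against 292 with every array. All 12 stayed called without mutant array 1, where 670 genes were called. With sex as a covariate, where 135 genes were called, 7 lost the call, Pf4 and Rgs2 among them.

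**Figure D4:**
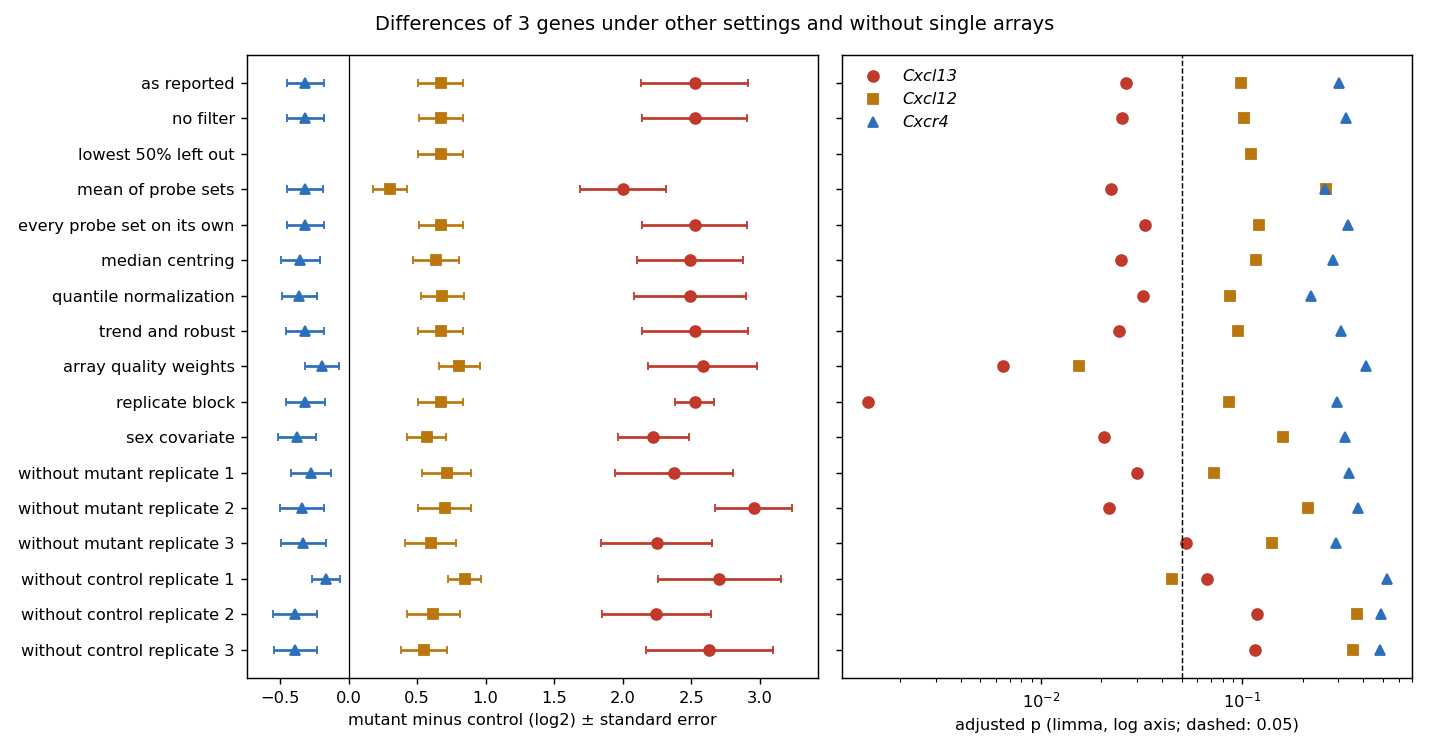
Log2 difference with its standard error (left) and adjusted p on a log axis (right) of Cxcl13, Cxcl12 and Cxcr4 as reported, under other settings (10 for Cxcl12, 9 for Cxcl13 and Cxcr4) and in the 6 fits that left out an array; the dashed line is at 0.05. Cxcl13 stays at 2.00 or above but crosses the dashed line in 4 fits, and Cxcl12 lies left of it under array quality weights and without control array 1.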

How the data were processed

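RNA of 6 embryonic tongues was measured on Affymetrix arrays. The authors deposited log2 values made with RMA, per the submitters' processing notes (version not given in the sources used here). RMA compresses dim differences, and arrays have no read depth, so the number of arrays limits the precision (median standard error of a difference 0.117). The table holds 45101 probe sets, 64 of them controls; 34945 have 1 symbol, 932 several and 9160 none listed in the platform annotation. Symbols were checked through Entrez identifiers against RefSeq (GRCm38.p6), with 0 changed and 204 probe sets unmatched.

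For each gene the brightest probe set was kept and genes in the lowest 25% were left out. Mutants and controls were compared across all 13645 genes with limma 3.58.1 in R 4.3.3 (lmFit, eBayes, 2-sided) with Benjamini-Hochberg adjustment, and the code was tested on simulated data. Figures used matplotlib 3.10.9. The 7 members and the 25 lists were chosen with earlier results of these data known. Genes named are the members, Tgfbr2, up to 4 called genes of a list (or the 2 with the smallest p), the receptors and proteases of the members, and the 3 genes nearest to a called member. Lists are described by counts and medians and were not tested.

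After subtraction of group means, arrays with the same title number correlated at 0.309, 0.105 and 0.206 across genes, so the title numbers were taken as pairs, on these correlations alone. Unlike-numbered arrays reached 0.196 (mutant 2 with control 3) and 0.147 (mutant 3 with control 2), above pair 2, so arrays 2 and 3 are not specific pairs by this measure. The fit with the replicate number as a block is given for Cxcl13, whose call it kept, and beside results whose call or count it changes. For the other tested members its adjusted p with limma was 0.0863 for Cxcl12, 0.237 for Cxcl1, 0.297 for Cxcr4 and 0.446 for Cxcl16. The other alternatives were the filter, the probe set rule, the scaling, the variance model, array weights, sex and each array left out.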

Additional observations from a re-analysis of the deposited data

How the results depend on the processing

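With 3 arrays a group and dim probe sets near background, counts of calls moved more than differences. The 292 called genes (180 higher) became 151 with a filter at the lowest 50%, 1034 with array quality weights, 490 with the replicate block (276 of the 292 among them), 135 with the sex covariate, 549 at an adjusted p under 0.1, and 16 to 670 when an array was left out. The count of members called was 1; it became 0 with the lowest 50% left out, which removed Cxcl13 from the test, 2 with array quality weights, 2 at an adjusted p under 0.1, and 0 to 1 when an array was left out, the 1 being Cxcl12 in place of Cxcl13 without control array 1. The Cxcl13 difference was 2.24 to 2.95 when an array was left out, and the call was lost in 4 of these 6 fits and kept in the 9 other fits that tested it. The Cxcl12 difference was 0.55 to 0.85 when an array was left out, passing only without control array 1, and 0.81 with array quality weights, where it passed. Cxcl1, Cxcl16 and Cxcr4 kept their direction and stayed without a call in all 15 fits that tested each, and Cxcl10 and Cxcl14 in both fits that tested them. No difference of a member gene, taken on its brightest probe set or the mean of its probe sets, changed sign under the alternatives run, whereas the dim Cxcl1 probe set 1419209_at had the opposite sign. The replicate block changed no call among the members. The cause of the calls lost when an array was left out was not tested; those fits also have fewer samples.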
